A study of Mus musculus with 48 samples.

Results

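Ribosomal protein genes encode the protein parts of the cytosolic ribosome. They were read here in myeloid cells sorted from mouse colon tumours, across 4 sorted populations and 2 genotypes. Rows of the count table were taken by name: Rpl or Rps followed by a number, with the paralogue endings a, x, y or l, and Rpsa, Rplp0, Rplp1 and Rplp2. Names ending in -ps, which mark pseudogenes, and the Rps6k kinases were left out. Of 24538 rows, 85 matched, and the 58 with a mean of 20 CPM (counts as a rate over the scaled library size) or more over 39 replicates are the members described, 36 of the large and 22 of the small subunit. Next above the minimum stood Rpl27 at 21.0 CPM and Rpl17 at 22.5 CPM. Next below it stood Rpl9 at 18.8 CPM, Rps7 at 18.6 CPM and Rps16 at 17.6 CPM. The members were chosen by their level, so that level is a description. The rule used no difference between samples.

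The mice had received azoxymethane, a colon carcinogen, and dextran sulfate sodium, which damages the colon epithelium, and cells were taken on day 85 in every group. Cells were sorted by Ly6C, a surface protein high on young monocytes, and by the antigen-presenting proteins of MHC class II. The populations were Ly6Chi MHCIIhi (3 replicates labelled ctrl, 4 labelled ko after a library of 8409 counts was left out), Ly6Chi MHCIIlo (4 and 4), Ly6Clo MHCIIhi (8 and 8) and Ly6Clo MHCIIlo (4 and 4). The label ko stands for mice without CCL17, a chemokine that attracts cells bearing CCR4. The series names ko mice kept together with control mice and ko mice kept apart, but no sample is labelled with its housing. The labels do not say whether replicates are separate or pooled mice, so each p-value measures the spread between these samples, which may be technical.

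Every ribosome carries a single copy of nearly each of its proteins, apart from the acidic stalk, where P1 and P2 dimers sit on P0 and recruit translation factors. Most ribosomal protein mRNAs begin with a C followed by a run of pyrimidines, the terminal oligopyrimidine (TOP) tract, through which the mTORC1 pathway and the protein LARP1 control their translation and stability. The genes have also left many processed pseudogenes in mammalian genomes, so reads from the gene and from its copies can be hard to tell apart.

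The stretches around the transcription start are shown because many members carry a run of pyrimidines there, which the rule did not use. The run searched for is called the tract below. It did not have to stand at the first base of the mRNA, so a match need not be the TOP tract. The RefSeq promoter table (GRCm38.p6, 250 bases before the start and 50 after it) matched 41 of the 58 members, with 51 windows. The tract was a C followed by at least 9 further C or T, within 50 bases either side of the start on the sense strand. It stood in 31 of the 51 windows (60.8%), from 27 of the 41 members, and in 14.4% of all 32851 windows. The 6 stretches that follow carry it in capitals and come from members called in the comparisons or from the longest tracts found: chr3:130730330-130730359 on the minus strand, chr7:109519186-109519215 on the plus strand, chr2:39005115-39005144 on the minus strand, chr7:118116143-118116172 on the minus strand, chr8:123102324-123102353 on the plus strand and chrX:37085173-37085202 on the minus strand, in that order, each 5′ to 3′.
Rpl34: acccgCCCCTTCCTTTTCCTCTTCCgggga
Rpl27a: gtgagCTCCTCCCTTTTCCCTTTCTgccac
Rpl35: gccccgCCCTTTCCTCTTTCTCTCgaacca
Rps15a: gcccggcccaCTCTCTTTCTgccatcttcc
Rpl13: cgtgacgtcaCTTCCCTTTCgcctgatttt
Rpl39: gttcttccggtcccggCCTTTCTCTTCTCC

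The tract was 20 bases long in Rpl34 and Rpl27a, 18 in Rpl35, 14 in Rpl39, and 10 in Rps15a and Rpl13, the shortest length searched. In Rpl39 it lies 37 bases after the listed start and reaches the end of the window, so it may run on. No such tract stood in the same span of 3 members that went against the others in the comparisons, shown for contrast as the 30 bases around the start listed in RefSeq: chr9:120127751-120127780 (plus), chr3:28805493-28805522 (plus) and chr17:46782642-46782671 (minus).
Rpsa: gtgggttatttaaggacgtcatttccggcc
Rpl22l1: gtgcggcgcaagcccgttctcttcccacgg
Rpl7l1: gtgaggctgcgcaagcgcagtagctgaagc

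A missing match says only that these letters are not in the window. The Rpl22l1 stretch holds a run of C and T that reaches the shortest length searched. It begins with T, so the search did not count it. The genes shown for contrast were picked for their direction. The tract stood in 27 of the 41 matched members, and the other members without it are not shown. Anywhere in the 300 bases and on either strand, CCGGAAG, the core bound by ETS factors, stood in 41.2% of member windows and in 8.86% of all. Its reverse form, CTTCCGG, begins with pyrimidines and can overlap the tract. AAGATGG, the core of YY1 sites, stood in 15.7% of member windows and 6.34% of all, and TATAAA in 9.80% and 13.6%. Members with the tract had a median log2 fold change of -0.44 (25 tested) in Ly6Clo MHCIIlo against Ly6Chi MHCIIlo, and members without it -0.23 (13 tested). In Ly6Clo MHCIIhi against Ly6Clo MHCIIlo the medians were 0.34 (25 tested) and 0.20 (14 tested). These are descriptions and were not tested.

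Levels of the members spanned a range of 185-fold. They are counts at the 3′ end of poly(A) RNA and are not divided by transcript length. In all, 22 members lay over 1000 CPM, 26 between 100 and 1000 CPM and 10 under 100 CPM. Among the highest means were those of Rpl41, the smallest ribosomal protein (2921 CPM), Rps14 (2895 CPM), Rps9, which helps hold the decoding centre (2254 CPM), and Rplp1 of the stalk (2204 CPM). The 5 highest members held 27.9% of the members' CPM and the 10 highest held 46.1%. The order of the 58 means was nearly the same in every population, with a Spearman rho from 0.982 to 0.995 between populations, across genes, which are not replicates.

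Many of these genes have transcript ends that are hard to tell from their copies. For each row, the last 300 bases of a single transcript (GENCODE M21, GRCm38) were cut into stretches of 50 bases. Other transcript ends of the same gene were not read. Stretches also found in the transcript of another gene were counted. Among members the median share of such stretches was 35.5%, with 17 members at none and 27 over 50%. Among the 27 rows under the minimum the median was 70.9%, with 16 rows over 50% and 5 at 100%. Of these 27 rows 24 are annotated as protein coding. Rps3a3, Rps3a2 and Rps12l1, which is at 100%, are annotated as processed pseudogenes, though their names lack -ps. All 58 members are annotated as protein coding. Rows with every stretch shared included Rps27 at 9.80 CPM, Rpl10 at 9.58 CPM and Rpl36a at 4.91 CPM. Rps18 had 1 count in the whole table. Rps13 stood at 12.9 CPM and the row Rps13-ps2 at 1250 CPM. Whether reads of such genes were counted in other rows was not tested. How the counting treated shared reads: not given in the sources used here. Across the 58 members level and shared percent had a Spearman rho of -0.20, and across all 85 rows -0.28.

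**Figure D1:**
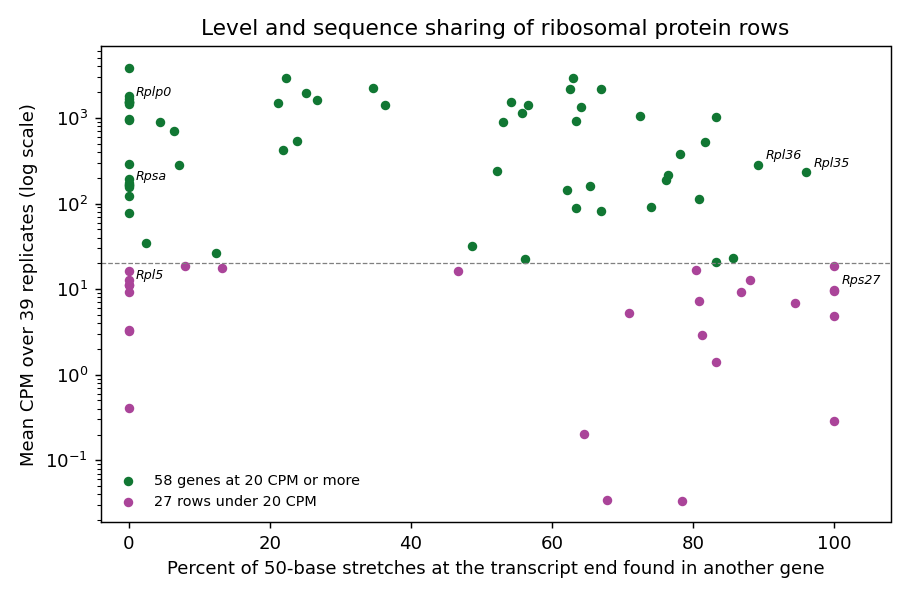
Mean CPM over 39 replicates (log scale) against the percent of 50-base stretches at the transcript end that another gene also holds, for 85 rows named as ribosomal protein genes. Green points are the 58 members, purple points the 27 rows under the dashed line at 20 CPM. Rplp0 shares none and is high, while Rps27 shares 100% and lies at 9.80 CPM.

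Sharing differed among the members described most. Rplp0 (chromosome 5, 115559467 to 115563727) and Rpsa (chromosome 9, 120127689 to 120132369) shared 0% of stretches. Rpl7l1 (chromosome 17, 46773907 to 46782672) shared 2.4%, Rplp2 (chromosome 7, 141447370 to 141451585) 6.4%, Rpl39 (chromosome X, 37082520 to 37085402) 21.1% and Rps9 (chromosome 7, 3703993 to 3706897) 34.7%. Rps4x (chromosome X, 102184941 to 102189394) shared 62.2%, Rpl22l1 (chromosome 3, 28805436 to 28807424) 63.3%, Rplp1 (chromosome 9, 61913284 to 61914542) 66.9% and Rpl36 (chromosome 17, 56613416 to 56614243) 89.2%. The values of this last group may hold reads of their copies.

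Replicate totals ran from 34362 to 891469 counts, with a median of 270142. Ccl17, the targeted gene, had 510 counts in Ly6Clo MHCIIhi labelled ctrl (median 55.6 CPM, 0 to 774) and 15 in labelled ko (median 3.38 CPM, 0 to 6.70). In the other populations it had 1 to 14 counts per genotype, with the highest medians in ctrl of Ly6Chi MHCIIlo (12.2 CPM, 0 to 23.95, 14 counts) and in ko of Ly6Clo MHCIIlo (4.90 CPM, 0 to 14.4, 5 counts), and Ly6Chi MHCIIhi ctrl reached 33.2 CPM on 3 counts in all. The Ly6Chi MHCIIhi ctrl replicate 1 stood apart, with 299349 CPM of haemoglobin and other red cell markers and 79798 CPM over 15 neutrophil markers, where the other 6 replicates of that population reached at most 1638 and 2610 CPM. Summed macrophage markers had medians of 40297 and 36610 CPM in Ly6Clo MHCIIhi and MHCIIlo, against 12574 and 6701 CPM in Ly6Chi MHCIIhi and MHCIIlo. Summed monocyte markers had medians of 5914 and 8947 CPM in Ly6Chi MHCIIhi and MHCIIlo, against 1450 and 2245 CPM in Ly6Clo MHCIIhi and MHCIIlo. In bulk samples fewer cells of a type and less RNA per cell cannot be told apart.

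The members together took the smallest share of counts in Ly6Clo MHCIIlo. There they held 4.09% ± 0.39 (SD, n = 8) of all counts, with a lowest value of 3.46%, a median of 4.27% and a highest of 4.42%. In Ly6Chi MHCIIlo they held 5.41% ± 0.63 (SD, n = 8), from 4.61% to 6.38% with a median of 5.42%. In Ly6Chi MHCIIhi the share was 5.52% ± 0.34 (SD, n = 7), from 4.88% to 5.93% with a median of 5.46%. In Ly6Clo MHCIIhi it was 5.12% ± 0.43 (SD, n = 16), from 4.08% to 5.67% with a median of 5.16%. All 7 Ly6Chi MHCIIhi, all 8 Ly6Chi MHCIIlo and 15 of 16 Ly6Clo MHCIIhi replicates lay above the highest Ly6Clo MHCIIlo replicate, and the exception was Ly6Clo MHCIIhi ctrl replicate 3 at 4.08%. The other 3 populations overlapped.

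**Figure D2:**
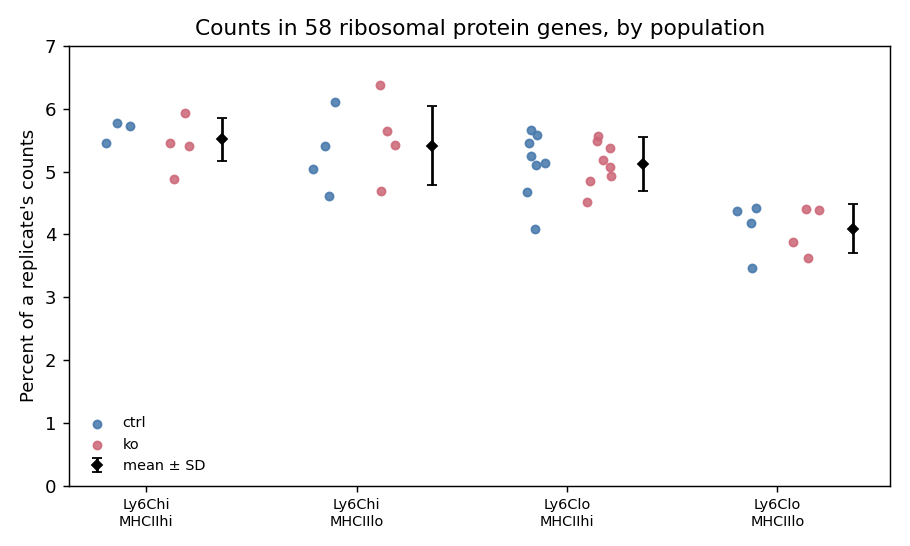
Percent of all counts in the 58 ribosomal protein genes, for each replicate, by sorted population, with the mean and SD. The 8 Ly6Clo MHCIIlo replicates lie between 3.46% and 4.42%, below all but 1 of the other 31.

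Both subunits had their smallest share there. Large and small subunit members held 2.13% ± 0.20 and 1.96% ± 0.18 (SD, n = 8) of counts in Ly6Clo MHCIIlo, and 2.77% ± 0.35 and 2.65% ± 0.29 (SD, n = 8) in Ly6Chi MHCIIlo. Their ratio was 1.06 ± 0.03 in Ly6Chi MHCIIhi (SD, n = 7), 1.04 ± 0.03 in Ly6Chi MHCIIlo (SD, n = 8), 1.10 ± 0.03 in Ly6Clo MHCIIhi (SD, n = 16) and 1.08 ± 0.03 in Ly6Clo MHCIIlo (SD, n = 8). The share followed the replicate's total within 3 of the populations, with a Pearson r between share and log2 total of 0.76 (n = 8), 0.65 (n = 16) and 0.75 (n = 8) in Ly6Chi MHCIIlo, Ly6Clo MHCIIhi and Ly6Clo MHCIIlo, and of -0.18 (n = 7) in Ly6Chi MHCIIhi. Totals ran from 139098 to 248596 counts in Ly6Clo MHCIIlo and from 222561 to 388820 counts in Ly6Chi MHCIIlo. Ly6Clo MHCIIhi ranged from 39872 to 891469 counts. The part of depth in these differences was not tested.

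Among MHCIIlo cells, ribosomal protein transcripts were lower in Ly6Clo than in Ly6Chi cells. Of 52 members tested, 29 were lower and 1 was higher with an adjusted p under 0.05 (edgeR's quasi-likelihood test, Benjamini-Hochberg over all genes of the comparison). Of all 3417 genes tested 20.4% were lower and 19% higher. The median log2 fold change was -0.41 over the members tested and 0.02 over all genes. Large subunit members gave 19 lower and 1 higher of 33, and small subunit members 10 lower of 19. For 19 members every Ly6Clo replicate lay below every Ly6Chi replicate, which 6.97% of all genes tested did. Of members that share no stretch with another gene 8 of 17 were lower, of those sharing up to 50% 8 of 11, and of those sharing more 13 of 24.

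Rps9 of the small subunit had the largest fold. Its level in Ly6Chi MHCIIlo was 2572 CPM at the lowest, 2967 at the median and 3603 at the highest, and in Ly6Clo MHCIIlo 1398, 1605 and 1708 CPM. The 2 sets did not overlap, and Rps9 was lower by a log2 fold change of -0.87 (SE 0.09, adjusted p = 6.65e-08, edgeR). Rplp0, the base of the stalk, had 1478, 1957 and 2377 CPM in Ly6Chi MHCIIlo and 876.1, 1101 and 1159 CPM in Ly6Clo MHCIIlo. These sets did not overlap either, and the log2 fold change was -0.76 (SE 0.11, adjusted p = 4.85e-06, edgeR).

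Rps4x, the X-linked form of a small subunit protein, ran from 127 to 258.8 CPM in Ly6Chi MHCIIlo with a median of 166.4, and from 61.95 to 122.1 CPM in Ly6Clo MHCIIlo with a median of 90.78. The ranges were apart, and the log2 fold change was -0.80 (SE 0.17, adjusted p = 0.000539, edgeR). Rpl36 of the large subunit overlapped, with 177.9, 318.7 and 435.7 CPM against 96.37, 179 and 279.1 CPM, and had a log2 fold change of -0.71 (SE 0.18, adjusted p = 0.00241, edgeR). Among the most abundant members, Rps14 had a median of 3566 CPM in Ly6Chi MHCIIlo and 2109 CPM in Ly6Clo MHCIIlo, and the 2 sets did not overlap. With only the replicates labelled ctrl, 4 a group, 9 members were lower in place of 29, and Rpl36 did not pass. That fit holds fewer samples, and its share of all genes lower is not given here.

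Neutrophil markers summed to 6871, 12162 and 20813 CPM (lowest, median, highest) in Ly6Chi MHCIIlo and to 6552, 13894 and 33112 CPM in Ly6Clo MHCIIlo, and none of the 15 markers in the table was at 0 throughout either group. These sums overlapped. The macrophage sums did not, at 5498 to 9422 CPM against 23611 to 42562 CPM over 11 markers, and neither did the monocyte sums, at 7423 to 10941 CPM against 1538 to 2537 CPM over 10 markers. The part of cell makeup in the difference was not tested.

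**Figure D3:**
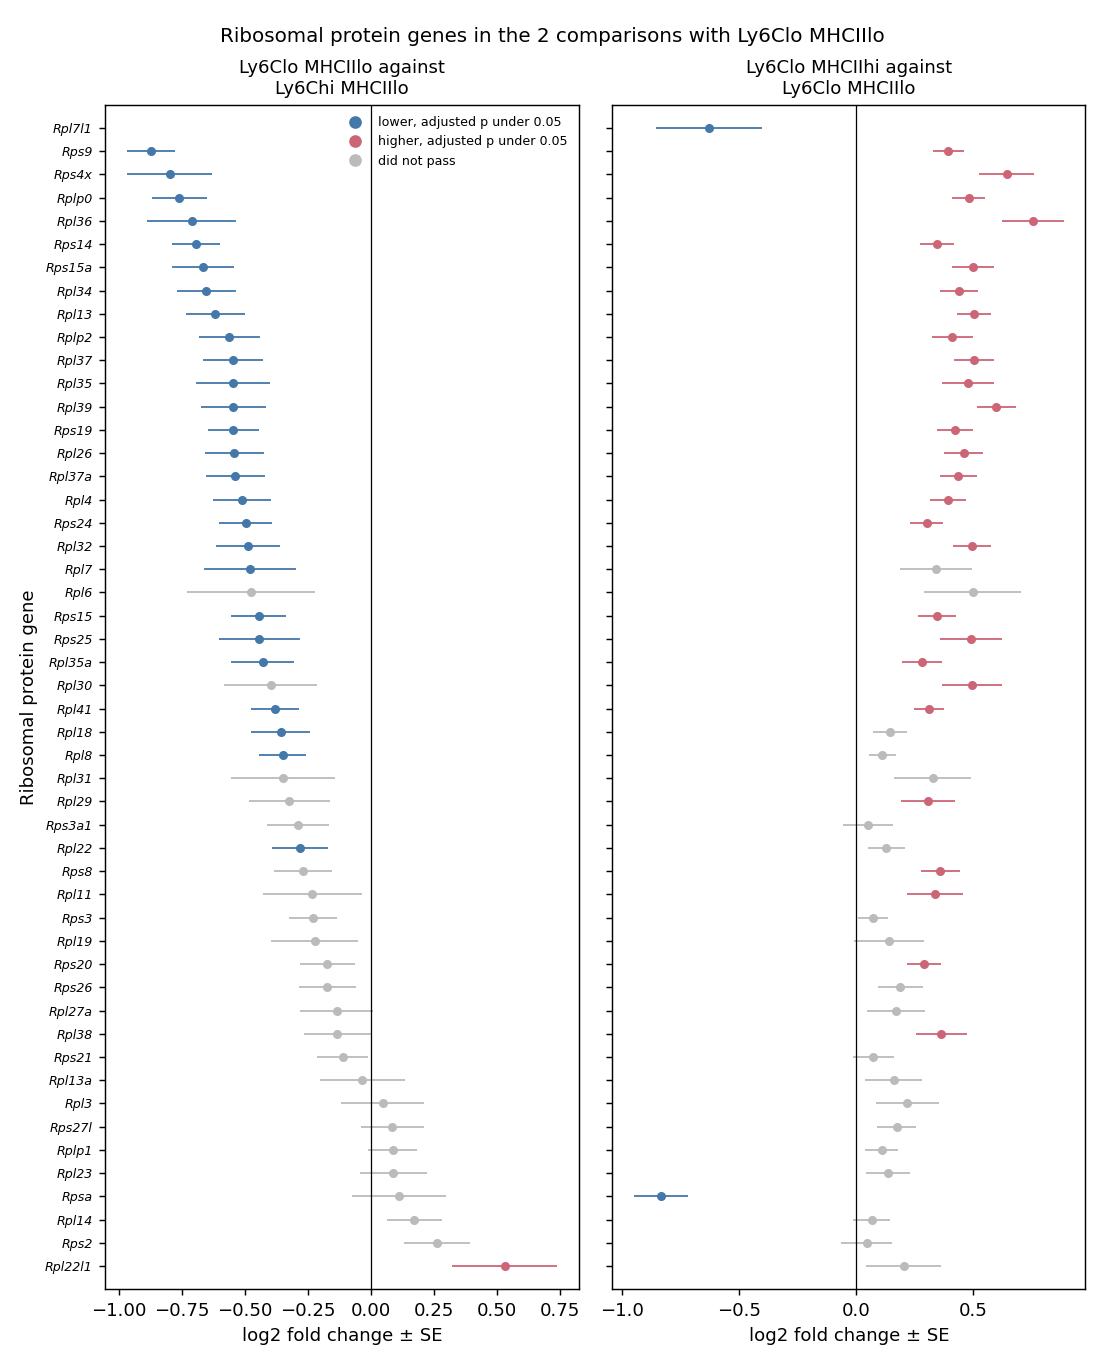
Log2 fold change with its SE (x axis) of each ribosomal protein gene (y axis) in the 2 comparisons that share the Ly6Clo MHCIIlo replicates. Blue points were lower, red points higher with an adjusted p under 0.05, and grey points did not pass. In the left panel 26 points are blue and 1 is red (Rpl22l1), and in the right panel 28 are red and 2 are blue (Rpsa and Rpl7l1), with 3 tested members not drawn.

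Within Ly6Clo cells, most members were higher in MHCIIhi than in MHCIIlo cells. Of 53 members tested, 31 were higher and 2 were lower, where 13.9% of all 4022 genes were higher and 14.8% lower. The median log2 fold change was 0.34 over the members tested and 0.00 over all genes. The large subunit gave 19 higher and 1 lower of 34, and the small subunit 12 higher and 1 lower of 19. This comparison uses the same 8 Ly6Clo MHCIIlo replicates as the one among MHCIIlo cells, so the 2 are not independent. Rplp0, Rpl13 and Rpl39 were the 3 members whose MHCIIhi replicates all lay above the MHCIIlo ones, which 0.721% of all genes tested did.

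Rpl39, a small protein of the peptide exit tunnel with the tract printed above, had 1303, 1571 and 1827 CPM in Ly6Clo MHCIIhi and 722.8, 1062 and 1226 CPM in Ly6Clo MHCIIlo. It was higher by a log2 fold change of 0.60 (SE 0.08, adjusted p = 5.26e-06, edgeR), with all 16 replicates above the MHCIIlo mean. Rps4x had 108.5, 143.1 and 174.6 CPM against 61.95, 90.78 and 122.1 CPM, overlapping at the edges, with a log2 fold change of 0.64 (SE 0.12, adjusted p = 0.000166, edgeR).

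Rpl36 had the largest fold, with 131.3, 304.5 and 402.7 CPM against 96.37, 179 and 279.1 CPM and a log2 fold change of 0.75 (SE 0.13, adjusted p = 9.07e-05, edgeR). Adding the -ps rows to their parent genes ended that call, at 0.21 with an adjusted p of 0.177. This is the member whose transcript end shares 89.2% with other genes. With only the ctrl replicates 14 members were higher in place of 31. The share of all genes higher in that smaller fit is not given here.

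Summed neutrophil markers were far lower in Ly6Clo MHCIIhi than in Ly6Clo MHCIIlo, at 888, 1152 and 2486 CPM against 6552, 13894 and 33112 CPM. The sums over 15 markers did not overlap, and no marker was at 0 throughout a group. Il1r2, the largest part of this sum in MHCIIhi, went the other way, at a mean of 411 CPM against 244. The means of the other neutrophil markers were lower in MHCIIhi. Macrophage sums overlapped, at 20588 to 52536 CPM against 23611 to 42562 CPM. Summed conventional dendritic cell markers were higher, at 211.7, 417.2 and 656.5 CPM in MHCIIhi against 50.87, 87.67 and 158.3 CPM in MHCIIlo over 12 markers. These sums did not overlap, none of the markers was at 0 throughout MHCIIhi, and Xcr1 was at 0 throughout MHCIIlo. Ccr7 was the largest part of the MHCIIhi sum, at a mean of 184 CPM against 27.6. The means of Dpp4 (6.40 against 8.09 CPM), Clec9a (0.63 against 1.83) and Itgae (0.26 against 0.59) were lower in MHCIIhi, and those of the other markers higher. The Pearson r between the members' share and the log2 neutrophil sum had no common sign within populations. It was -0.53 in Ly6Clo MHCIIlo (Spearman -0.52, n = 8), -0.33 in Ly6Clo MHCIIhi (Spearman -0.06, n = 16) and -0.20 in Ly6Chi MHCIIlo (Spearman -0.31, n = 8). In Ly6Chi MHCIIhi it was 0.44 (Spearman 0.82, n = 7). There ctrl replicate 1 had a neutrophil sum of 79798 CPM and a share of 5.77%, and the other replicates reached at most 2610 CPM. The part of neutrophil or dendritic cell RNA in the difference was not tested.

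**Figure D4:**
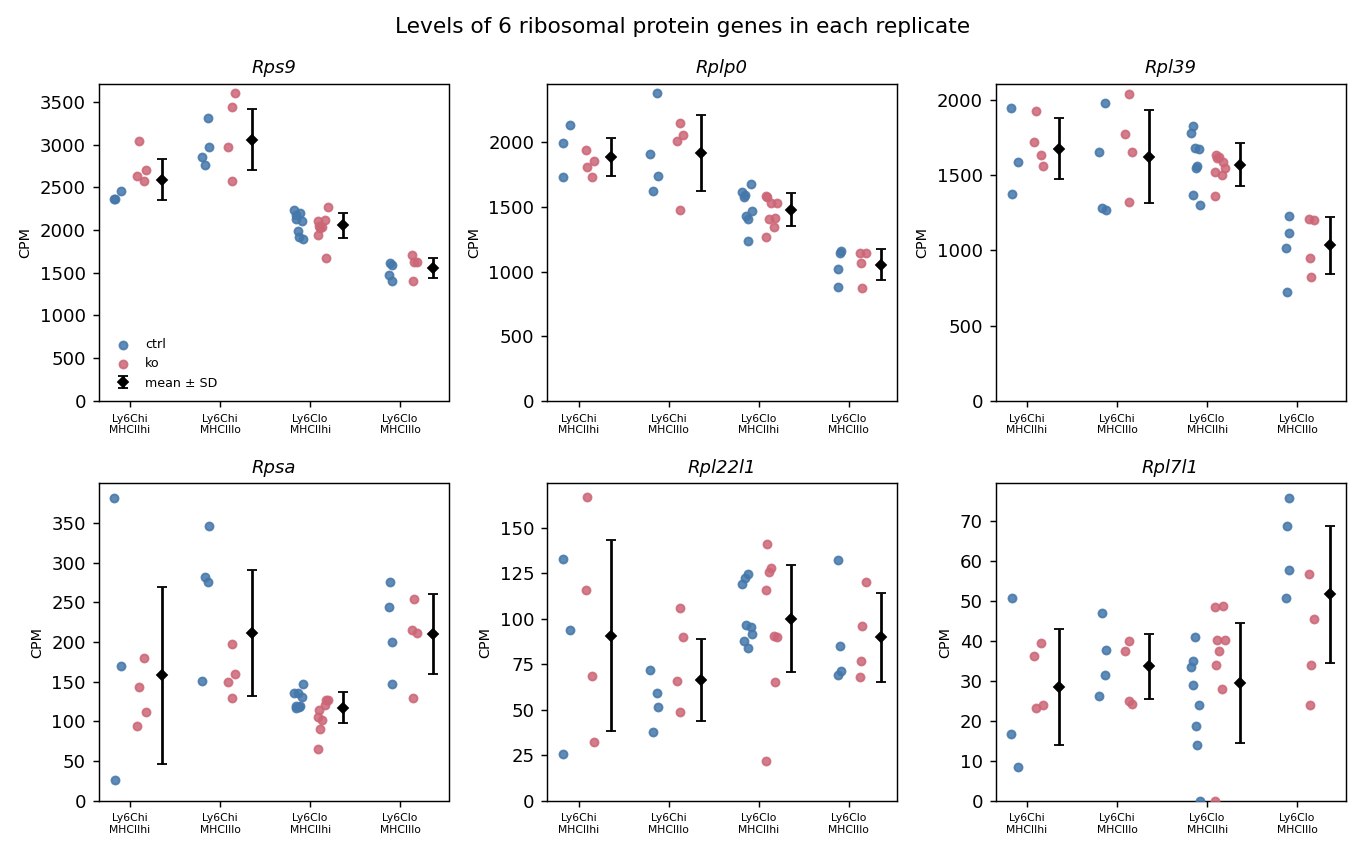
CPM of chosen ribosomal protein genes in each replicate (points) of the 4 sorted populations. Rps9 and Rplp0 are lowest in Ly6Clo MHCIIlo, whose 8 replicates reach at most 1708 and 1159 CPM, while Rpsa is lowest in Ly6Clo MHCIIhi, with a median of 119.1 CPM.

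Rpsa, a small subunit protein also known as a laminin receptor precursor, went the other way. It had 129.7, 213.2 and 275.3 CPM in Ly6Clo MHCIIlo and 65.64, 119.1 and 146.8 CPM in Ly6Clo MHCIIhi. All 16 MHCIIhi replicates lay below the MHCIIlo mean though the 2 sets met at the edges, and the log2 fold change was -0.83 (SE 0.12, adjusted p = 4.26e-06, edgeR). The end of the single transcript read for it, of 1938 bases, shares no stretch with another gene. Other ends were not read, and 9 genes are named as pseudogenes of Rpsa. In Ly6Chi MHCIIlo it had 129.1, 178.3 and 345.6 CPM, and its log2 fold change in Ly6Clo MHCIIlo against Ly6Chi MHCIIlo was 0.11 (95% interval -0.25 to 0.48, adjusted p = 0.666, edgeR). In Ly6Chi MHCIIhi it was spread from 25.42 to 381.9 CPM with a median of 143.7.

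Rpl7l1, a paralogue of Rpl7 that acts in the nucleolus, was the other lower member. It had 24.02, 53.8 and 75.7 CPM in Ly6Clo MHCIIlo and 0, 33.73 and 48.86 CPM in Ly6Clo MHCIIhi, overlapping, with a log2 fold change of -0.63 (SE 0.23, adjusted p = 0.0384, edgeR). Leaving out any 1 of 6 replicates ended the call: Ly6Clo MHCIIlo ctrl 1, 2, 3 or 4, ko 1, or Ly6Clo MHCIIhi ctrl 8, with adjusted p-values from 0.051 to 0.107. Rpl7 itself had medians of 62.08 and 87.7 CPM in the same 2 groups and shares 74.1% of stretches. Rpl22l1, a paralogue of Rpl22, was the single member higher in Ly6Clo MHCIIlo than in Ly6Chi MHCIIlo, with 68.08, 80.85 and 132.3 CPM against 37.63, 62.19 and 105.8 CPM, overlapping. Its log2 fold change was 0.53 (SE 0.21, adjusted p = 0.0461, edgeR), and Rpl22 had -0.28 (adjusted p = 0.0478). The Rpl22l1 call ended in 18 of 28 alternatives, 11 of them a single replicate left out, with adjusted p-values up to 0.376.

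The 3 stalk proteins gave different values. Rplp0 was lower in Ly6Clo MHCIIlo than in Ly6Chi MHCIIlo by -0.76 and higher in Ly6Clo MHCIIhi than in Ly6Clo MHCIIlo by 0.48 (log2; adjusted p = 8.01e-06 for the second, edgeR). Rplp2 had 626.1, 839 and 950.9 CPM in Ly6Chi MHCIIlo, 412.6, 521.3 and 638.7 in Ly6Clo MHCIIlo and 503.3, 699.2 and 853.9 in Ly6Clo MHCIIhi, with log2 fold changes of -0.56 and 0.41 (adjusted p = 0.000670 and 0.000845, edgeR). Rplp1 had 1749, 2134 and 2650 CPM, then 1927, 2075 and 2279, then 1641, 2331 and 2585, the sets overlapping throughout. Its log2 fold changes were 0.09 (95% interval -0.11 to 0.28, adjusted p = 0.524) and 0.11 (95% interval -0.03 to 0.25, adjusted p = 0.257), and neither passed under the other 3 scalings tried. The differences between the 3 genes were not themselves tested, and Rplp1 shares 66.9% of stretches where Rplp0 shares none.

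Other paralogue pairs were unequal in level, on counts not divided by length. Rps27l, induced by p53, averaged 418 CPM and the row Rps27 9.80 CPM, with the sharing above. Rpl22 averaged 536 and Rpl22l1 89.3 CPM, Rpl7 90.1 and Rpl7l1 34.7 CPM, Rpl3 218 and Rpl3l, the muscle form, 12.8 CPM, and Rpl39 1488 and Rpl39l, the testis form, 3.22 CPM. Rpl10 averaged 9.58 and its testis paralogue Rpl10l 0.413 CPM. Rps27l and Rpl3 did not pass between Ly6Clo and Ly6Chi MHCIIlo cells, at log2 fold changes of 0.08 and 0.05.

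Among MHCIIhi cells, some members were lower in Ly6Clo than in Ly6Chi cells. Of 54 tested 10 were lower and 0 higher, where 8.31% of all 4550 genes were lower and 9.74% higher. At an unadjusted p under 0.05 there were 20 members in either direction. The shares of all genes above are for an adjusted p and are no background to that count. The median log2 fold change was -0.15 over members and 0.02 over all genes. Rps14 had 2897, 3644 and 3981 CPM in Ly6Chi MHCIIhi and 1816, 2761 and 2987 in Ly6Clo MHCIIhi, overlapping at the edges, with a log2 fold change of -0.44 (SE 0.10, adjusted p = 0.00172, edgeR). Rpl8, near the peptidyl transferase centre, had 1886, 2274 and 3238 against 1510, 1760 and 1944 CPM, overlapping, and -0.43 (SE 0.10, adjusted p = 0.00286, edgeR). Rpl13 had 1023, 1302 and 1710 against 831.5, 1003 and 1084 CPM, overlapping, and -0.39 (SE 0.10, adjusted p = 0.00541, edgeR).

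Rps15a had 1590, 1834 and 3038 against 962.8, 1550 and 1751 CPM, and -0.41 (SE 0.13, adjusted p = 0.0225, edgeR). Rpl7 had 97.61, 127.1 and 136.7 against 21.88, 87.7 and 105.9 CPM, and -0.45 (SE 0.15, adjusted p = 0.0324, edgeR). Both overlapped between the populations. Rplp0, Rps9 and Rpl37a were the 3 members without overlap, which 0.308% of all genes tested shared, and had log2 fold changes of -0.35, -0.33 and -0.28. Without Ly6Chi MHCIIhi ctrl replicate 1, the red cell rich one, 6 members were lower and Rps15a did not pass (adjusted p = 0.0685), and without ctrl replicate 3, of 34362 counts, 15 were lower. Rpl7 also lost its call without Ly6Chi MHCIIhi ctrl 4, ko 2 or ko 3 (adjusted p from 0.0534 to 0.0989). With library totals as the scale 2 members were lower, and with no count filter, with the library of 8409 counts kept or with only ctrl replicates 0 were. Macrophage sums lay at 7505 to 15717 CPM in Ly6Chi MHCIIhi and 20588 to 52536 CPM in Ly6Clo MHCIIhi, and monocyte sums at 2955 to 8334 and 1134 to 2339 CPM, both without overlap. Their part in the difference was not tested.

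Between the Ly6Chi populations no member passed. Of 52 tested 0 were higher and 0 lower in MHCIIhi than in MHCIIlo by edgeR, where 1.58% of all 3676 genes were higher and 1.74% lower. Without adjustment 2 members had a p under 0.05. DESeq2 also called 0. The smallest p-values were those of Rps2, near the mRNA entry, at a log2 fold change of 0.47 (SE 0.19, adjusted p = 0.193, edgeR) and of Rpl14 at 0.36 (SE 0.16, adjusted p = 0.259, edgeR). The median over members was 0.13, and 0.00 without Ly6Chi MHCIIhi ctrl replicate 1.

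Genotype had no called effect on any member in any population. By edgeR 0 members passed of 52 in Ly6Chi MHCIIhi, 53 in Ly6Chi MHCIIlo, 58 in Ly6Clo MHCIIhi and 53 in Ly6Clo MHCIIlo, and 1, 2, 0 and 1 had an unadjusted p under 0.05. DESeq2 also called 0. Of all genes tested 0%, 0.0756%, 0% and 0.0314% passed in either direction. The share of counts was 5.12% ± 0.52 in ctrl and 5.12% ± 0.36 in ko in Ly6Clo MHCIIhi (SD, n = 8 each), and 4.11% ± 0.44 and 4.07% ± 0.39 in Ly6Clo MHCIIlo (SD, n = 4 each). It was 5.29% ± 0.64 and 5.54% ± 0.70 in Ly6Chi MHCIIlo (SD, n = 4 each), and 5.65% ± 0.17 (SD, n = 3) and 5.42% ± 0.43 (SD, n = 4) in Ly6Chi MHCIIhi. Every difference was smaller than the SDs within a group, apart from the last, which exceeded the SD of ctrl.

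In Ly6Clo MHCIIhi, with 8 replicates per genotype, ko against ctrl gave log2 fold changes of -0.04 for Rps9 (95% interval -0.19 to 0.12), 0.01 for Rps14 (-0.17 to 0.19), 0.03 for Rplp1 (-0.16 to 0.21) and 0.04 for Rpl41 (-0.12 to 0.20). In Ly6Chi MHCIIlo, Rpsa had 345.6, 282.3, 275.1 and 150.5 CPM in ctrl and 197.6, 159.1, 149.6 and 129.1 CPM in ko, overlapping, with a log2 fold change of -0.72 (SE 0.24, adjusted p = 0.275, edgeR). Rpsa also had the smallest p in Ly6Clo MHCIIhi, at -0.21 (SE 0.12, adjusted p = 0.951, edgeR). Rpl30 had the next smallest in Ly6Chi MHCIIlo, at 0.57 (SE 0.25, adjusted p = 0.400, edgeR).

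In Ly6Chi MHCIIhi the smallest p-values were those of Rpl6, at 121 ± 16.7 CPM in ctrl (SD, n = 3) and 72.0 ± 24.8 in ko (SD, n = 4), with a log2 fold change of -0.83 (SE 0.36, adjusted p = 0.708, edgeR), and of Rpl3 at -0.68 (SE 0.33, adjusted p = 0.708, edgeR). The median over members there was -0.26, and 0.02 without ctrl replicate 1. In Ly6Clo MHCIIlo, Rpl3, which lines the peptidyl transferase centre, had 161 ± 54.7 CPM in ctrl and 241 ± 20.8 in ko (SD, n = 4 each), at 0.56 (SE 0.23, adjusted p = 0.999, edgeR), and Rpl7l1 had -0.65 (SE 0.34, adjusted p = 0.999, edgeR). A single test of whether genotype acted differently between populations called 0 of 58 members, where 0.0664% of all genes passed. It had 2 members at an unadjusted p under 0.05, Rpl3 (adjusted p = 0.711) and Rpl7l1 (adjusted p = 0.741). In the 3 populations with at most 4 replicates per genotype, the base content of the library barcodes (rich in A and T or in G and C) follows genotype, so these cannot be told apart. In libraries of Ly6Clo MHCIIhi the members' share was 5.09% ± 0.43 with A/T-rich barcodes (SD, 12 libraries) and 5.30% ± 0.39 with G/C-rich ones (SD, 12 libraries), and some replicates gave 2 of these libraries. By genotype it was 5.04% ± 0.49 (SD, 8 libraries) and 5.56% ± 0.20 (SD, 4 libraries) in ctrl, and 5.19% ± 0.29 (SD, 4 libraries) and 5.17% ± 0.41 (SD, 8 libraries) in ko. Of the 5 replicates with a library of each kind, the G/C-rich one had the higher share in all 4 of ctrl, and in ko replicate 4 it had the lower (5.53% against 5.60%).

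**Figure D5:**
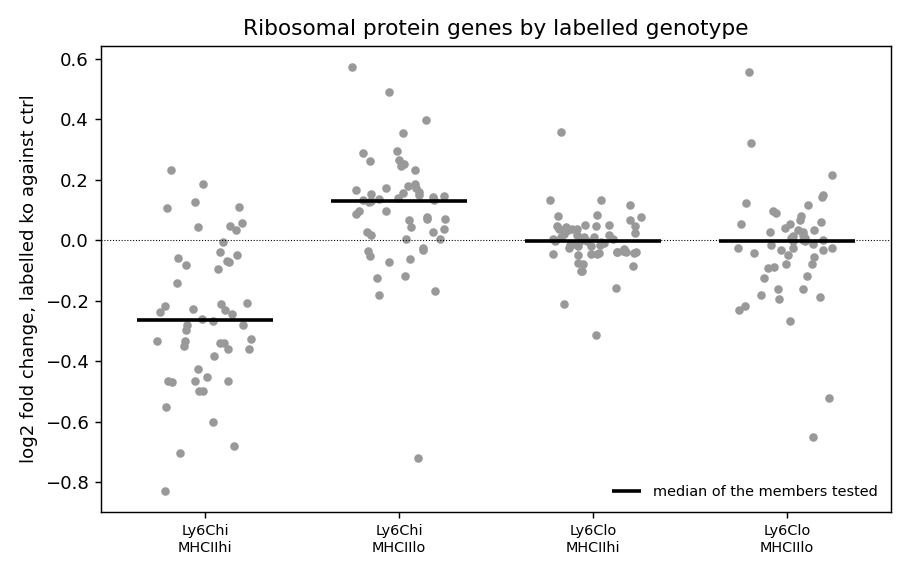
Log2 fold change of labelled ko against ctrl (y axis) for each ribosomal protein gene tested (points), by sorted population, with the median as a bar. The bars lie at -0.26, 0.13, 0.00 and 0.00 from left to right, and no point passed an adjusted p of 0.05.

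Across the 39 replicates most members followed the rest. The Pearson r of a member's log2(CPM + 1) with the share of counts in the other members had a median of 0.71 and reached 0.94, and 40 of 58 were over 0.5. It was lowest for Rpsa at -0.20, and was -0.01 for Rpl7l1. The replicates share depth and scaling, so these values describe the libraries. The SD of log2(CPM + 1) over replicates was smallest for Rps3 (0.20), Rplp1 (0.20) and Rpl23 (0.22), and largest for Rps29 (1.49) and Rpl27 (1.52), which had 447 and 290 counts in all. Among 5672 genes outside the members, those whose level followed the members' share most closely were AC102483.1 (r = 0.91), RP23-392C8.4 (0.90), Rpl37rt (0.90), Rps13-ps2 (0.85), Rpl31-ps8, Rps16-ps2 and RP24-409N2.1 (0.84 each), then a pair of rows named only by clone and Rpl3-ps1.

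Pseudogene rows were read as well. The 208 rows named as ribosomal protein pseudogenes held 0.693% ± 0.070 of counts in Ly6Clo MHCIIlo (SD, n = 8) and 0.879% ± 0.096 in Ly6Chi MHCIIlo (SD, n = 8). Of 29 tested, 15 were lower and 0 higher in Ly6Clo MHCIIlo against Ly6Chi MHCIIlo, and 18 were higher and 2 lower in Ly6Clo MHCIIhi against Ly6Clo MHCIIlo. Of all genes tested 20.4% were lower and 19% higher in the first comparison, and 13.9% higher and 14.8% lower in the second. Reads of the parent genes may have been counted in the pseudogene rows, which was not tested. Ribosomal proteins made under other names gave few tested rows. In the first comparison Rps27rt (-0.76) and Rpl36al (-0.51) were lower of 3 tested.

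Many genes that build ribosomes were too low to test. Of 30 listed biogenesis genes 8 were tested in Ly6Clo MHCIIlo against Ly6Chi MHCIIlo, and 4 were higher and 1 lower, where 19% of all genes tested were higher and 20.4% lower. The higher ones had log2 fold changes of 1.64 for Gnl3 (nucleostemin), 1.06 for Nhp2, a protein of the H/ACA particles that modify rRNA, 0.83 for Ncl (nucleolin) and 0.62 for Wdr43, a factor of early small subunit assembly. Polr1d, a subunit of RNA polymerases I and III, was lower (-0.39) and did not pass with library totals as the scale. In Ly6Clo MHCIIhi against Ly6Clo MHCIIlo 1 of 12 was higher, Nop10 (0.38), and 4 were lower, Gnl3 (-0.58), Ncl (-0.27), Wdr43 (-0.48) and Pes1 (-0.62), where 13.9% of all genes were higher and 14.8% lower. The medians over the tested genes were 0.55 and -0.23, beside 0.02 and 0.00 over all genes. In Ly6Clo MHCIIhi against Ly6Chi MHCIIhi Nhp2 was higher (0.50) of 15 tested. The first 2 comparisons share the Ly6Clo MHCIIlo replicates, and the list was chosen with earlier results known, so the counts over so few genes are given only as a description.

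Translation factors whose mRNAs are known to carry the TOP tract were mixed. In Ly6Clo MHCIIlo against Ly6Chi MHCIIlo, 4 of 15 were lower, the initiation factor subunits Eif3f (-0.93), Eif3k (-0.77) and Eif3h (-0.77) and the nascent chain protein Naca (-0.64), and 3 were higher, with Eef1g, of the elongation factor complex, at 0.66. These counts are near the background of 20.4% of all genes lower and 19% higher, and the median over the 15 was -0.21. In Ly6Clo MHCIIhi against Ly6Clo MHCIIlo 3 of 15 were higher, Eif3k (0.53), Eif3f (0.47) and Eif3h (0.31), and 2 were lower, Eif4b (-0.82) and the poly(A) binding protein Pabpc1 (-0.35), again near the 13.9% of all genes higher and 14.8% lower, with a median of 0.14. In Ly6Clo MHCIIhi against Ly6Chi MHCIIhi Eif3f (-0.41) and Btf3 (-0.63) were lower of 15.

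Of genes that control ribosomal protein mRNA, Rheb, the activator of mTORC1, was lower in the first comparison (-0.66) and higher in the second (0.95). Mxd1, an antagonist of MYC, was lower in the first (-0.80), Cnbp was higher in the second (0.46), and Ssb, the La protein, was higher in the first (0.56) and lower in the second (-0.49). That made 1 higher and 2 lower of 8 tested, and 2 higher and 1 lower of 10, too few to set apart from all genes, of which 19% were higher and 20.4% lower in the first and 13.9% higher and 14.8% lower in the second. Proteins of the mitochondrial ribosome are encoded by nuclear genes and serve as a comparison. There 8 were higher and 3 lower of 41 in the first, with Mrpl33 at -1.39 and Mrpl41 at 0.99, and 6 were higher and 0 lower of 48 in the second. The shares higher, 8 of 41 and 6 of 48, are near the 19% and 13.9% of all genes, while 20.4% and 14.8% of all genes were lower. Their median log2 fold changes were 0.16 and 0.19, beside -0.41 and 0.34 for the cytosolic members.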

How the data were processed

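The labels describe bulk 3′ sequencing of poly(A) RNA. In the deposited table each of 48 libraries has whole-number counts by gene symbol (8409 to 500687 counts). The submitters' processing notes name GRCm38, R 3.4.4 and DESeq2 1.18.1. Aligner, counter and molecular identifiers: not given in the sources used here.

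Members and lists were chosen with earlier results of these data known. Second libraries of a replicate in Ly6Clo MHCIIhi were added to the first, and the library under 0.1 of the median total was left out. CPM are counts scaled by TMM (edgeR 4.0.16, R 4.3.3). Genes passing filterByExpr (minimum count 10, total 15) were tested with edgeR's quasi-likelihood F test and Benjamini-Hochberg adjustment (threshold 0.05) over all genes. Population tests carried genotype as a term. Intervals are 1.96 SE. The fits were tested on simulated data.

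Members named are the 5 highest, up to 5 per direction and comparison past the threshold by fold (or the 2 smallest p), the stalk proteins, Rpsa, paralogue pairs, the extremes of SD and those beside the minimum; of other lists, up to 4 by p; of genes like the members, 10 by r. A few genes are not reported here. Further genes named beside them were chosen after their values were seen. Alternatives were DESeq2's size factors and test (1.42.0), library totals, TMM without members, no count filter, all libraries, library 1 only, ctrl only, a pooled fit with and without barcode class, a replicate block and each replicate left out.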

Additional observations from a re-analysis of the deposited data

Results flagged for a closer look

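Ly6Clo MHCIIhi ko replicate 6, of 39872 counts, was the lowest of 8 replicates by a gap that is wide for the spread of the rest in 4 members. Rpl36 stood at 131.3 CPM there (next lowest 289.1), Rpl7 at 21.88 CPM (next 77.5), Rpl7l1 at 0 CPM (next 27.92) and Rps15a at 962.8 CPM (next 1417). In all, 105 groups of values were looked at, those of 13 members, of the members' share of counts and of the large to small subunit ratio. Chance alone gives such a gap in about 1 of 20.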

How the results depend on the processing

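Nothing reversed a called direction. Of 134 planned settings on the counts of called members and the shares, 117 stayed within 1.5 times the value or its spread, as did 260 of 273 with a replicate left out. Members lower in Ly6Clo MHCIIhi against Ly6Chi MHCIIhi numbered 10, and 0 with no count filter, with all libraries kept, with the replicate block and with ctrl only, and 2 with library totals, which shift the median of all genes to 0.13. With 1 replicate left out they numbered 6 to 15. Members higher in Ly6Clo MHCIIlo against Ly6Chi MHCIIlo numbered 1, and 0 with DESeq2's size factors or test, with TMM from non-members, with no count filter and with the pooled fit of libraries with or without barcode class, 2 with library totals, and 0 to 3 with a replicate left out. Those lower numbered 29, and 9 with ctrl only. In Ly6Clo MHCIIhi against Ly6Clo MHCIIlo those lower numbered 2, and 1 with no count filter, library 1 only or the replicate block, and 1 to 2 with a replicate left out. Those higher numbered 31, and 14 with ctrl only. The ctrl only fits hold fewer samples, and the other causes were not tested. Replicate numbers pair no samples by the labels, so the block was used only as an alternative. Same-numbered samples deviated together (r over 0.1) in at most 4 of 7 pairs of a comparison, which does not settle whether they are paired. The block left 0 calls by genotype. A minimum of 10 CPM gives 68 members and of 100 CPM 48. Rps9, Rplp0 and Rps4x (Ly6Clo against Ly6Chi MHCIIlo) and Rpsa, Rpl39 and Rps4x (within Ly6Clo) passed in all alternatives run. Low counts limit Rps29 and Rpl27, and intervals cover counting error and replicate spread only.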
